A study of Mus musculus with 16 samples.

Results

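The nuclear genes of mitochondrial complexes II, III and V were examined as RNA in 3 fat depots of the mouse. The genes were chosen by name. A row of the FPKM table (fragments per kilobase of transcript and per mapped fragments, a level per length) was taken where its symbol began with Sdh, Uqc or Atp5, or was Cyc1, Cycs, Bcs1l or Ttc19, where it was not named as a pseudogene and where its mean passed 1 FPKM in at least 1 of the 6 groups. This gave 37 of the 38396 rows of the table. The rule matched 38 names, and Atp5l-ps1 was left out by its name. No other matching gene missed the threshold of 1 FPKM: the lowest members just inside it were Atp5s and Sdhaf1, with 4.56 and 10.5 FPKM in their highest group. Of the 37 members, 36 are protein-coding in GENCODE and were tested. Atp5l2 is a processed pseudogene there and is given by its values alone.

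The study asked what the loss of HuR, an RNA-binding protein encoded by Elavl1, does in adipose tissue. There were 16 RNA-seq libraries, each of RNA pooled from 3 mice of 12 weeks of age. The groups were brown fat (BAT) of HuR-FKO and Ctrl mice with 2 libraries each, inguinal white fat (iWAT) of HuR-FKO and Ctrl mice with 3 each, and epididymal white fat (eWAT) of HuR-FKO and Ctrl mice with 3 each. HuR-FKO mice carried adiponectin-Cre and a pair of floxed HuR alleles, and the Ctrl littermates carried the same floxed alleles without Cre. All came from floxed animals crossed to C57BL/6. Adiponectin-Cre acts in adipocytes, so vascular, immune and muscle cells in the tissue keep HuR. P-values here measure the spread between pools of mice, and the labels do not say whether depots came from the same mice.

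Complex II (succinate dehydrogenase) passes electrons from succinate to ubiquinone and is at the same time an enzyme of the citric acid cycle. Complex III (the cytochrome bc1 complex) passes them on to cytochrome c and pumps protons, and complex V (ATP synthase) lets protons back through its membrane c-ring to make ATP in its F1 head. Brown adipocytes are packed with mitochondria, and their uncoupling protein UCP1 lets protons return without passing through ATP synthase, so that the energy appears as heat. ATP synthase protein is known to be scarce in brown fat relative to the respiratory chain, and the c subunit has been described as the limiting component. Complex II is built from nuclear genes alone, whereas cytochrome b of complex III and subunits a and A6L of complex V are encoded in mitochondrial DNA.

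Many respiratory-chain genes are known to share binding letters for nuclear respiratory factor 1 (NRF1) in their promoters. RefSeq promoter windows, from 250 bases before to 50 bases after the start (GRCm38.p6), were found for 28 of the 37 members. The NRF1 letters GCGCATGCG, searched on both strands, stood in 7 of these 28 (25%) and in 1.95% of the 27025 genes with a window. Those 7 were Cycs, Uqcrc1, Uqcr11, Ttc19, Atp5g2, Atp5k and Atp5l. These letters equal their own reverse complement moved by a single base, so a window can match on both strands and was counted once per gene. The letters TCAAGGTCA of the estrogen-related receptors (ERR) stood in 2 windows (7.14%, against 0.466% of all genes), CCGGAAGT of the ETS family in 4 (14.3%, against 4.31%) and AAGATGGC of YY1 in 3 (10.7%, against 3.19%). A promoter could count under more than 1 motif, as that of Uqcr11 did for NRF1 and ETS. A match is a description of letters and not a site of binding. Stretches of 30 bases are shown for the genes that stood at the extremes of the brown-to-white comparison or led the comparison of genotypes (Cycs, Uqcrc1, Atp5l), for the c-ring genes with a match (Atp5g2, Atp5g3) and for the complex II gene that shares the ERR letters (Sdhd), in the direction of the gene, all of them on GRCm38.p6, with the matched letters in capitals.
Cycs, NRF1 letters on the opposite strand, chr6:50566611-50566640, minus strand: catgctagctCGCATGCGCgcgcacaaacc
Uqcrc1, NRF1 letters, chr9:108936668-108936697, plus strand: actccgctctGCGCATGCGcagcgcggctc
Atp5l, NRF1 letters on the opposite strand, chr9:44920963-44920992, minus strand: aaccaataaCGCATGCGCatttcccccact
Atp5g2, NRF1 letters, chr15:102671070-102671099, minus strand: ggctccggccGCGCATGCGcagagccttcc
Atp5g3, ERR letters on the opposite strand, chr2:73911359-73911388, minus strand: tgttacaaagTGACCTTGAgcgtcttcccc
Sdhd, ERR letters on the opposite strand, chr9:50603800-50603829, minus strand: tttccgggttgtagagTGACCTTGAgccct

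Some facts of the libraries bear on every value. Depth is not given with FPKM; read from the steps of low values it came to about 16.7 to 17.7 M fragments in BAT, 11.7 to 15.4 in iWAT and 9.24 to 13.5 in eWAT, with 49.1% to 77.8% of low values whole within 0.05 on the log2 scale, so no counts were recovered. All rows summed to 719410 to 796180 FPKM in BAT libraries, against 3460300 to 12928000 in white fat libraries, and 10442 to 10785 protein-coding genes passed 1 FPKM in BAT, against 11949 to 12532 in white fat. Many pseudogene copies that were read in white fat were near 0 in BAT, so depot and the way these libraries were quantified cannot be told apart. Brown adipocyte markers summed to 7130 to 10132 FPKM in BAT, against 598 to 2032 in iWAT and 58.2 to 117 in eWAT. Skeletal muscle markers summed to 1840 to 5525 FPKM in BAT, 74.3 to 3566 in iWAT and 70.5 to 95.3 in eWAT. Elavl1 was at 8.98 and 8.17 FPKM in BAT libraries labelled HuR-FKO, against 8.34 and 7.36 in BAT Ctrl. It was at 16.5, 15.3 and 13.9 FPKM in iWAT libraries labelled HuR-FKO, against 13.2, 15.8 and 12.4 in iWAT Ctrl, and at 13.9, 15.4 and 13.3 in eWAT libraries labelled HuR-FKO, against 13.6, 13.8 and 12.2 in eWAT Ctrl. The targeted gene was thus not lower under the HuR-FKO label in any depot, and the FPKM of a whole gene do not say whether its floxed exons were read.

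The members were abundant RNAs. Together the 36 coding members made up 3.59% to 4.20% of all protein-coding FPKM in the BAT libraries, against 1.28% to 1.76% in the white fat libraries. Per length, the catalytic F1 subunit beta gene Atp5b was the highest in BAT Ctrl, at 3106 ± 599 FPKM (SD, n = 2), followed by the membrane subunit gene Atp5l at 1791 ± 306. The next in order, Atp5k (1620 ± 352), Uqcr10 (1545 ± 330) and Uqcrh (1539 ± 181), lay within each other's spread. Assembly factors stood far lower. Sdhaf1, which protects the iron-sulfur subunit of complex II, was at 7.84 ± 1.13 FPKM in BAT Ctrl, and Sdhaf2, which attaches the flavin to SDHA, was at 12.0 ± 0.86. Bcs1l, which inserts the Rieske protein, and Ttc19, which clears its fragments, were at 14.6 ± 0.91 and 13.9 ± 1.61.

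Most members were far higher in brown than in white fat. In Ctrl mice, 30 of 36 members were called higher in BAT than in iWAT (limma on log2(FPKM + 1), Benjamini-Hochberg adjusted p under 0.05 over all genes), where 8.89% of the 13054 genes tested were called higher and 65.6% lower. 1 member, Atp5g3, was called lower. The median difference of the members was 1.51 on the log2 scale, against -0.69 for all genes tested. Because the median gene was lower in BAT, directions near 0 depend on the scaling; with median-ratio scaling the median of all genes was -0.14 and that of the members 2.19. Against eWAT, 30 members were called higher in BAT Ctrl (9.35% of all genes) and 1 lower (64.9%), with a median of 1.53 against -0.66 for all genes. The libraries labelled HuR-FKO gave the depot contrasts again without sharing any library. There, 29 members were called higher and 2 lower in BAT than in iWAT (8.62% and 68.3% of all genes), and 30 higher and 3 lower in BAT than in eWAT (9.11% and 68.6%). Of the calls higher in BAT than in iWAT, 28 were shared, which is 96.6% of the calls in HuR-FKO and 93.3% of those in Ctrl. In bulk tissue, fewer cells of a type and less RNA per cell cannot be told apart. Muscle is also rich in mitochondria, and all 16 skeletal muscle markers were higher in BAT Ctrl than in iWAT Ctrl, 14 of them called; their part in the depot differences was not tested.

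**Figure D1:**
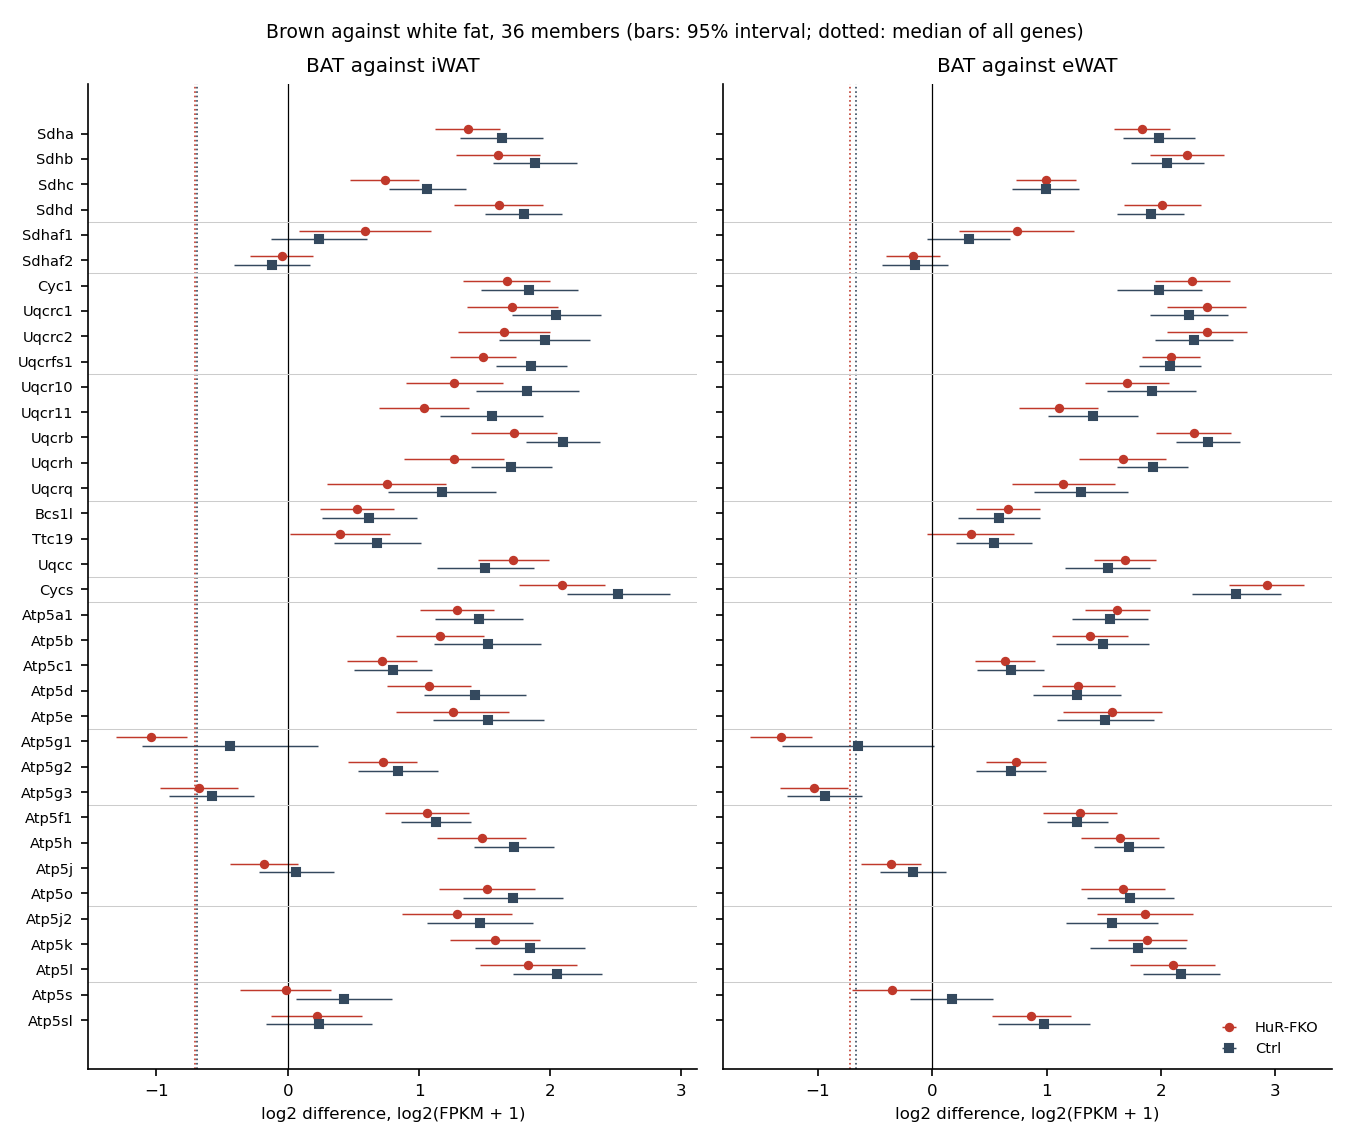
Log2 differences, on the log2(FPKM + 1) scale, of BAT against iWAT (left) and BAT against eWAT (right) for the 36 coding members, with HuR-FKO libraries as red circles, Ctrl libraries as dark squares, bars for 95% intervals and dotted lines for the median of all genes. Most members lie between 1 and 3 while the median gene lies near -0.7, and the c-ring genes Atp5g1 and Atp5g3 lie below 0.

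All 4 subunits of complex II were higher in brown fat, and by unequal amounts. Sdha, the flavin-bearing subunit that oxidises succinate (chromosome 13), was at 712 and 909 FPKM in BAT Ctrl, against 272, 235 and 273 in iWAT Ctrl. Sdhb, the iron-sulfur subunit (chromosome 4), was at 662 and 568 FPKM in BAT Ctrl, against 187, 145 and 167 in iWAT Ctrl. The groups did not overlap for either gene, and the log2 differences were 1.63 (SE 0.14, adjusted p = 1.01e-05) and 1.88 (SE 0.14, adjusted p = 5.44e-06). Sdhc and Sdhd, the membrane anchors that bind ubiquinone, differed from each other. Sdhd (chromosome 9) was at 498 and 503 FPKM in BAT Ctrl, against 158, 126 and 147 in iWAT Ctrl, a log2 difference of 1.80 (SE 0.13). Sdhc (chromosome 1) was at 327 and 291 FPKM in BAT Ctrl, against 157, 130 and 155 in iWAT Ctrl, a log2 difference of 1.06 (SE 0.13). The 95% intervals of these anchors did not overlap, and against eWAT in Ctrl the complex II subunits ranged from 0.99 to 2.06. Neither assembly factor was called in BAT Ctrl against iWAT Ctrl in FPKM. Both were called higher with median-ratio scaling, and Sdhaf1 also with scaling to nuclear protein-coding FPKM. Sdhaf2 was at 12.6 and 11.4 FPKM in BAT Ctrl, against 13.6, 14.5 and 11.5 in iWAT Ctrl, a log2 difference of -0.12 (adjusted p = 0.409). It turned to 0.51 with median-ratio scaling (adjusted p = 0.00565 by limma).

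The 4 core subunits of complex III were higher in BAT by much the same amount. Uqcrc1 and Uqcrc2 encode the matrix-side core proteins, Uqcrfs1 the Rieske iron-sulfur protein and Cyc1 cytochrome c1. Uqcrc1 (chromosome 9) was at 756 and 732 FPKM in BAT Ctrl, against 206, 149 and 188 in iWAT Ctrl. Uqcrc2 (chromosome 7) was at 978 and 774 FPKM in BAT Ctrl, against 249, 192 and 233 in iWAT Ctrl. For both, every BAT library stood above every iWAT library. Uqcrfs1 (chromosome 13) was at 586 and 548 FPKM in BAT Ctrl, against 169, 139 and 161 in iWAT Ctrl. Cyc1 (chromosome 15) was at 685 and 657 FPKM in BAT Ctrl, against 209, 155 and 201 in iWAT Ctrl. The log2 differences of the 4 genes lay between 1.84 (Cyc1, SE 0.16) and 2.05 (Uqcrc1, SE 0.15), with adjusted p-values of at most 1.27e-05. Against eWAT they lay between 2.09 and 2.40 in HuR-FKO and between 1.99 and 2.29 in Ctrl.

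Cycs, somatic cytochrome c, which carries electrons away from complex III (chromosome 6), had the widest gap of all members in the table as deposited. It was at 374 and 285 FPKM in BAT Ctrl, against 59.9, 51.0 and 58.0 in iWAT Ctrl and 60.9, 42.6 and 50.6 in eWAT Ctrl. Its lowest BAT library was above its highest white fat library, and the log2 difference between BAT and iWAT in Ctrl was 2.52 (SE 0.17, adjusted p = 3.57e-06). Cycs has 4 nearly identical copies in the table, which summed to 307 and 302 FPKM in BAT Ctrl, against 208, 175 and 194 in iWAT Ctrl. With these copies added, an alternative chosen after seeing the data, the difference was 1.35 (adjusted p = 0.000142) and was still called, but no longer the widest: Uqcrc1, which has no such copies, was at 2.05.

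The 5 small subunits of complex III, which surround the core, were all called higher in BAT as well, with log2 differences of 1.18 to 2.09 between BAT and iWAT in Ctrl. The highest of them was Uqcrb, known as the ubiquinone-binding protein of the complex, at 1366 and 1155 FPKM in BAT Ctrl, against 291, 279 and 311 in iWAT Ctrl. Its difference of 2.09 (SE 0.13, adjusted p = 1.93e-06) became 1.68 with its copies added. The assembly factors moved less, apart from Uqcc. Uqcc, now named Uqcc1, aids the making of cytochrome b and differed by 1.51 (SE 0.16), whereas Bcs1l and Ttc19 differed by 0.62 and 0.68. All 3 were called.

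In complex V the F1 head followed the same direction. The 5 F1 genes (Atp5a1, Atp5b, Atp5c1, Atp5d and Atp5e) were all called higher in BAT than in iWAT in Ctrl, with log2 differences of 0.80 (Atp5c1, the gamma rotor) to 1.53. Of the 4 genes of the peripheral stalk, which holds the head still, Atp5f1, Atp5h and Atp5o were called higher. Atp5j, which encodes coupling factor 6 of the stalk, was not: it was at 241 and 200 FPKM in BAT Ctrl, against 198, 204 and 228 in iWAT Ctrl. Its groups overlapped, and the log2 difference was 0.07 (95% interval -0.22 to 0.36, adjusted p = 0.645); it turned to -0.07 without BAT Ctrl 1 and was called, at 0.75, with median-ratio scaling (adjusted p = 0.00146). The small membrane subunits f, e and g, encoded by Atp5j2, Atp5k and Atp5l and known for the pairing of ATP synthases at cristae ridges, were all called higher, at 1.46 to 2.05. Atp5l was at 2007 and 1575 FPKM in BAT Ctrl, against 453, 394 and 438 in iWAT Ctrl. Its difference of 2.05 (SE 0.15, adjusted p = 4.84e-06) became 1.42 with its copies added. One such copy is the member Atp5l2, which was at 1.8 and 0.20 FPKM in BAT HuR-FKO and 0.97 and 0.73 in BAT Ctrl, against 70.8 to 114 in the 12 white fat libraries. Atp5sl, now named Dmac2 and known in human cells for complex I assembly rather than complex V, was not called between BAT and iWAT in Ctrl (0.24, adjusted p = 0.245). It was called higher with median-ratio scaling and with scaling to nuclear protein-coding FPKM.

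Of the c-ring genes, Atp5g1 and Atp5g3 had log2 differences below 0 in brown against white fat in FPKM when all libraries were used, and Atp5g2 was higher. Atp5g1, Atp5g2 and Atp5g3 encode the same mature c subunit behind different import signals, so their sum stands for the supply of c-ring RNA. Atp5g3 (chromosome 2), the most abundant of them in every library, was at 356 and 326 FPKM in BAT HuR-FKO and 391 and 321 in BAT Ctrl. In white fat it was at 590, 512 and 537 FPKM in iWAT HuR-FKO, 573, 479 and 544 in iWAT Ctrl, 675, 792 and 636 in eWAT HuR-FKO and 714, 628 and 710 in eWAT Ctrl. All 4 BAT libraries were below all 12 white fat libraries. In FPKM, Atp5g3 was lower in BAT than in iWAT by a log2 difference of -0.68 in HuR-FKO (SE 0.13, adjusted p = 0.00126) and -0.58 in Ctrl (SE 0.14, adjusted p = 0.00497), whereas with median-ratio scaling it was at 0.03 and 0.10 and not called (adjusted p = 0.850 in HuR-FKO and 0.589 in Ctrl). Its difference was thus close to that of the median gene, while the F1 genes were at 0.72 to 1.29 in HuR-FKO and at 0.80 to 1.53 in Ctrl.

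Atp5g2 (chromosome 15) was at 235 and 217 FPKM in BAT HuR-FKO and 210 and 182 in BAT Ctrl. It was at 133, 140 and 136 FPKM in iWAT HuR-FKO, 124, 102 and 101 in iWAT Ctrl, 131, 155 and 123 in eWAT HuR-FKO and 121, 113 and 130 in eWAT Ctrl. It was the c-ring gene that went up in brown fat, by 0.73 in HuR-FKO (SE 0.12, adjusted p = 0.000416) and 0.84 in Ctrl (SE 0.14, adjusted p = 0.000393) against iWAT. Atp5g1 (chromosome 11) was at 19.7 and 17.5 FPKM in BAT HuR-FKO and 52.2 and 20.6 in BAT Ctrl, against 37.6 to 42.0 in iWAT HuR-FKO and 42.3 to 47.4 in iWAT Ctrl. The library BAT Ctrl 1 stood alone among the BAT libraries for this gene. Atp5g1 was lower in BAT than in iWAT by -1.04 in HuR-FKO (adjusted p = 5.93e-05) and was not called in Ctrl (-0.44, adjusted p = 0.202), where it was at -1.09 without BAT Ctrl 1 (adjusted p = 0.000241) and at 0.21 without BAT Ctrl 2. With median-ratio scaling the Ctrl value was 0.22. It has a nearly identical pseudogene copy, and with that copy added the Ctrl difference was -1.02 (adjusted p = 0.00777).

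Ratios within a library do not depend on the scaling between libraries. The summed c-ring FPKM per summed F1 FPKM was 0.0865 and 0.0896 in BAT HuR-FKO and 0.0884 and 0.0880 in BAT Ctrl. It was 0.217 to 0.269 in iWAT HuR-FKO, 0.272 to 0.295 in iWAT Ctrl, 0.323 to 0.359 in eWAT HuR-FKO and 0.341 to 0.351 in eWAT Ctrl. The 4 BAT libraries thus had less c-ring RNA per F1 RNA than any white fat library, and iWAT libraries had less than eWAT libraries. The c-ring sum itself was made up differently. Atp5g2 gave 38.5% and 38.8% of it in BAT HuR-FKO and 32.1% and 34.7% in BAT Ctrl. In white fat it gave 17.4% to 20.3% in iWAT HuR-FKO, 14.7% to 16.8% in iWAT Ctrl, 15.4% to 15.5% in eWAT HuR-FKO and 13.5% to 14.6% in eWAT Ctrl. These ratios are descriptions without a test.

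**Figure D2:**
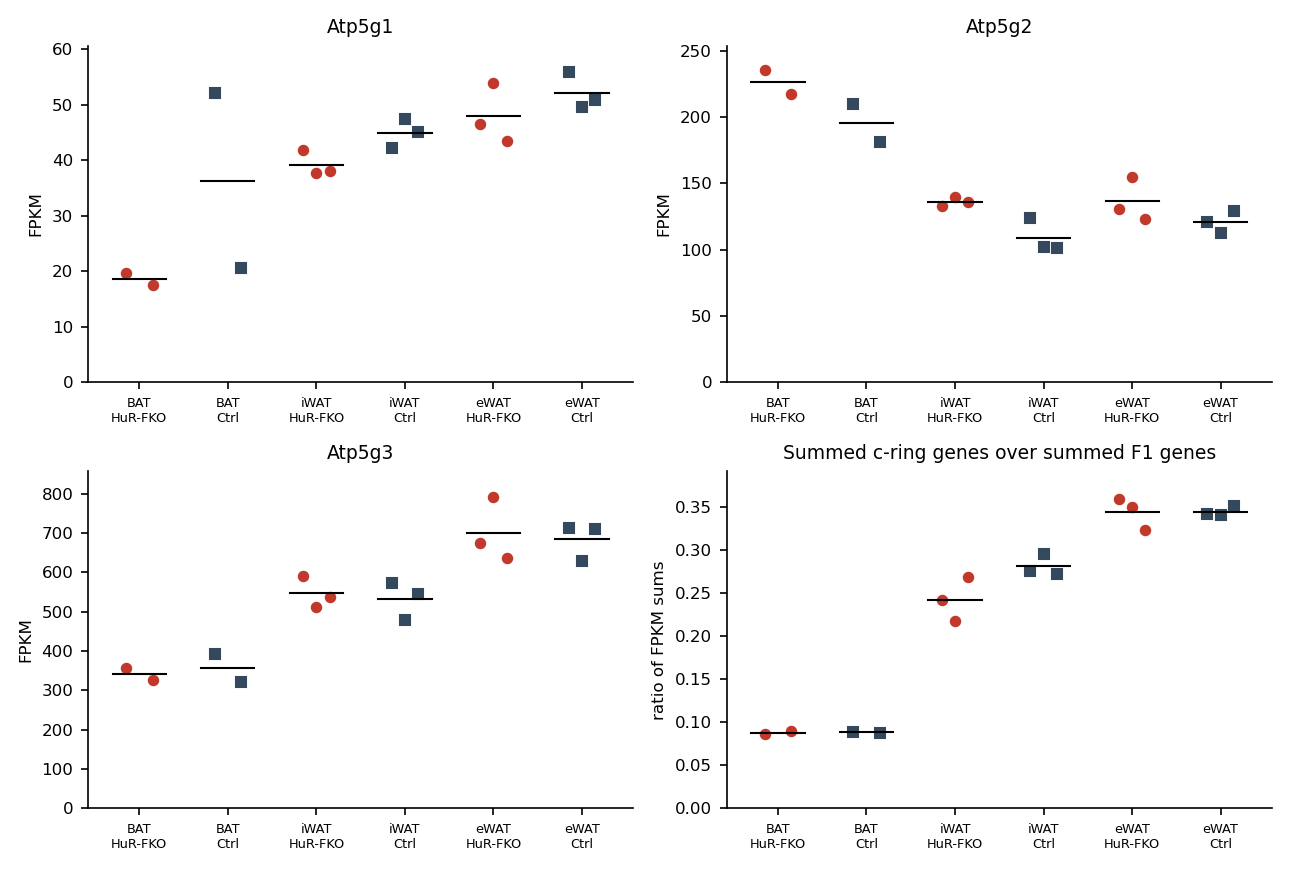
FPKM of the c-ring genes Atp5g1, Atp5g2 and Atp5g3 in each library, and the ratio of their sum to the sum of the 5 F1 genes, by depot and genotype (red circles HuR-FKO, dark squares Ctrl, lines at group means, linear axes from 0). The ratio lies near 0.09 in all 4 BAT libraries and at 0.217 or more in every white fat library.

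The partners of these genes that the rule leaves out followed in part. Mitochondrially encoded mt-Cytb, cytochrome b of complex III, was at 48041 and 49358 FPKM in BAT HuR-FKO and 42832 and 37563 in BAT Ctrl, against 11697 to 14111 in iWAT HuR-FKO and 9178 to 10523 in iWAT Ctrl, and was called higher in BAT than in iWAT (2.05 in Ctrl, adjusted p = 2.1e-05). The genes mt-Atp6 and mt-Atp8 of complex V were listed at 0 in all 4 BAT libraries and at 9954 FPKM or more in all white fat libraries, so no fold is given for them. The complex V partners tested were assembly factors, the inhibitor, subunits under older names, and carriers of ADP, ATP and phosphate. Of these 10 genes, 7 were called higher and 1 lower in BAT than in iWAT in Ctrl (8.89% and 65.6% of all genes). The same numbers were called in HuR-FKO (8.62% and 68.3% of all genes). The gene that was lower was Atpif1, the inhibitor of F1 ATP hydrolysis, at 13.9 and 14.4 FPKM in BAT HuR-FKO and 12.5 and 14.4 in BAT Ctrl, against 36.9 to 44.4 in iWAT HuR-FKO and 31.8 to 39.0 in iWAT Ctrl (-1.42 in HuR-FKO, adjusted p = 8.73e-05, and -1.33 in Ctrl, adjusted p = 3.04e-05). The median of all genes tested was -0.70 in HuR-FKO and -0.69 in Ctrl. Of 13 regulators of mitochondrial biogenesis tested, 6 were called higher and 3 lower in BAT than in iWAT in Ctrl (8.89% and 65.6% of all genes). Ppargc1a, the coactivator PGC-1alpha, was at 6.86 and 7.24 FPKM in BAT Ctrl, against 1.55 to 2.77 in iWAT Ctrl, and was called higher (1.46, adjusted p = 0.000199). Nrf1 itself was at 2.25 and 4.94 FPKM in BAT Ctrl, against 6.31 to 9.69 in iWAT Ctrl, and was called lower (-1.05, adjusted p = 0.00521). The median of all genes, at -0.69, was lower in this contrast too. Members with the NRF1 letters had a median BAT to iWAT difference of 1.85 in Ctrl (lowest 0.68, highest 2.52). Matched members without them had 1.51 (lowest -0.58, highest 1.89). With near-identical copies added, Cycs and Atp5l, which carry the letters, stood at 1.35 and 1.42, both below 1.51. The medians were not recomputed with copies, so they do not show a wider gap for members with the letters. This is a description.

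More members were called between the white depots in HuR-FKO than in Ctrl. In HuR-FKO, 11 of 36 members were called higher in iWAT than in eWAT (14.9% of the 13017 genes tested were) and 1 lower (14.9%). In Ctrl, 1 member, Atp5sl, was called higher (0.74, adjusted p = 0.00866 by limma, 15.9% of all genes) and none lower (12.2% of all genes). At an unadjusted p under 0.05 by limma, 4 members were higher and 1 lower in Ctrl (2836 and 2402 of the 13054 genes tested). In HuR-FKO, 15 were higher and 3 lower by that measure (2658 and 2798 of the 13017 genes tested). The 11 genes called higher in HuR-FKO were Sdha, Sdhb and Sdhd, the core genes Cyc1, Uqcrc1, Uqcrc2 and Uqcrfs1, the small-subunit gene Uqcrb, and Cycs, Atp5j2 and Atp5sl. The gene called lower in HuR-FKO was Atp5g3 (-0.36, adjusted p = 0.0480 by limma), close to the threshold. Its call was lost under both other scalings, with the replicate block, without a trend, without a minimum FPKM, over all genes and on leaving out 5 of the 6 libraries in turn (all but eWAT HuR-FKO 3). The calls of Sdhd and Atp5j2 were also lost without a minimum FPKM, over all genes and on leaving out 4 of the 6 libraries in turn, and that of Sdhd without a trend. Over the libraries left out, 9 to 18 members were called (18 without iWAT HuR-FKO 3). In the table as deposited, the widest differences were those of Cycs (0.84, SE 0.13, adjusted p = 0.00181) and Uqcrc2 (0.75, SE 0.14, adjusted p = 0.00392). With its near-identical copies added, Cycs stood at 0.74, below Uqcrc2, and was still called (adjusted p = 0.00222 by limma). The difference between the genotypes in this contrast was tested by its own term over all libraries, and no member was called there.

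In iWAT, electron-transfer genes ran higher in the libraries labelled HuR-FKO, although no member passed the adjusted threshold. Of 36 members, 31 had a higher mean in iWAT HuR-FKO than in iWAT Ctrl, with a median log2 difference of 0.24, against -0.04 for all genes. No member was called in either direction (limma; 0.0394% of the 12706 genes tested were). At an unadjusted p under 0.05 there were 13 members higher (3.70% of all genes) and 0 lower (5.52%). Groups did not overlap for 12 members higher (5.66% of all genes) and 1 lower (8.83%), which was Atp5g1. The core of complex III had the highest median of the subunit groups, 0.52 with all 4 genes higher. Complex II subunits had a median of 0.35 with all 4 higher, the small subunits of complex III 0.26 with all 5 higher, and the F1 genes 0.25 with all 5 higher.

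Uqcrfs1, the Rieske protein gene, had the smallest p. It was at 233, 240 and 214 FPKM in iWAT HuR-FKO, against 169, 139 and 161 in iWAT Ctrl. The groups did not overlap, and the log2 difference was 0.55 (SE 0.11, unadjusted p = 0.00137 and adjusted p = 0.259 by limma, higher in 3 of 3 libraries). It was called in 1 alternative, with the spread taken over all 16 libraries (adjusted p = 0.0259). Cycs was at 86.4, 102 and 71.5 FPKM in iWAT HuR-FKO, against 59.9, 51.0 and 58.0 in iWAT Ctrl, a log2 difference of 0.60 (SE 0.14, adjusted p = 0.302 by limma). With its copies added, the difference was 0.48 (adjusted p = 0.359 by limma). Uqcrc1 was at 302, 316 and 232 FPKM in iWAT HuR-FKO, against 206, 149 and 188 in iWAT Ctrl, a difference of 0.65 (SE 0.17, adjusted p = 0.322 by limma). In both genes the library HuR-FKO 3 was the lowest of its group yet above all Ctrl libraries.

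The other core and complex II genes had the same shape. Cyc1 was at 264, 311 and 218 FPKM in iWAT HuR-FKO, against 209, 155 and 201 in iWAT Ctrl, and Uqcrc2 at 316, 344 and 256, against 249, 192 and 233. Sdhb was at 240, 269 and 197 FPKM in iWAT HuR-FKO, against 187, 145 and 167 in iWAT Ctrl. Sdha was at 327, 343 and 287 FPKM in iWAT HuR-FKO, against 272, 235 and 273 in iWAT Ctrl. None of these overlapped between the groups, and the log2 differences ran from 0.29 (Sdha) to 0.50 (Sdhb), with unadjusted p-values of 0.0115 to 0.0378 by limma. Sdhc was at 207, 194 and 169 FPKM in iWAT HuR-FKO, against 157, 130 and 155 in iWAT Ctrl (0.36). Sdhd was at 193, 206 and 151 FPKM in iWAT HuR-FKO, against 158, 126 and 147 in iWAT Ctrl (0.34), and its groups overlapped. Among c-ring genes, Atp5g2 stood at 0.32 and Atp5g3 at 0.04, while Atp5g1, at 42.0, 37.6 and 38.0 FPKM in iWAT HuR-FKO, against 42.3, 47.4 and 45.2 in iWAT Ctrl, stood at -0.19.

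Markers of other cells, and single libraries, moved with these values. HuR-FKO 1 and HuR-FKO 2 held the highest iWAT value for 13 and 18 of the 36 members, and Ctrl 2 the lowest for 27. Brown adipocyte markers (13 genes in the list, 12 tested) summed to 1640, 2032 and 1018 FPKM in iWAT HuR-FKO, against 789, 598 and 820 in iWAT Ctrl. Of the 12, 10 were higher in iWAT HuR-FKO and 1 was called. HuR-FKO 2 was the highest and Ctrl 2 the lowest library by this sum, as they were for the genes plotted with it. Ucp1 was at 139, 182 and 101 FPKM in iWAT HuR-FKO, against 25.3, 8.33 and 21.6 in iWAT Ctrl. Skeletal muscle markers (16 genes, 15 tested) summed to 74.3, 369 and 939 FPKM in iWAT HuR-FKO, against 557, 686 and 3566 in iWAT Ctrl, and 14 of the 15 were lower in iWAT HuR-FKO, 0 called (limma). No marker of either list was at 0 in iWAT apart from Zic1 in Ctrl 2. Fibroblast and progenitor markers (8 genes) summed to 1574, 1986 and 2456 FPKM in iWAT HuR-FKO, against 3049, 2401 and 2722 in iWAT Ctrl, and all 8 were lower. All 10 macrophage markers were lower too, with sums of 1520, 1461 and 1757 FPKM in iWAT HuR-FKO, against 2328, 1939 and 1495 in iWAT Ctrl. All 8 endothelial markers were higher, with sums of 351, 341 and 414 FPKM in iWAT HuR-FKO, against 290, 293 and 328 in iWAT Ctrl, and so were the 4 red cell markers tested (2030, 1722 and 3354 FPKM, against 1578, 1250 and 1404). Of the sums, those for brown adipocytes, endothelium and red cells did not overlap between the groups; none of the fibroblast, macrophage, endothelial or red cell markers was called (limma). All 8 B cell markers, 7 of 9 T cell markers and 8 of 12 adipocyte markers were higher in iWAT HuR-FKO, with sums that overlapped and 0 called (limma). The part of these cells in the iWAT differences was not tested.

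In brown fat 18 members were higher and 18 lower under the HuR-FKO label, with a median of 0.01, against -0.05 for all genes. This split depended on the scaling and on single libraries: 27 members were higher with median-ratio scaling and 29 with scaling to nuclear protein-coding FPKM, 15 without HuR-FKO 1, 24 without HuR-FKO 2, 27 without Ctrl 1 and 14 without Ctrl 2. No member was called, and no gene of the 10944 tested was (limma, 0.00% of all genes). At an unadjusted p under 0.05, 3 members were higher (2.89% of all genes) and 1 lower (6.75%). Groups did not overlap for 10 members higher (14.8% of all genes) and 4 lower (26.6%). Atp5s, a minor gene named for complex V, had the smallest p, at 2.98 and 2.75 FPKM in BAT HuR-FKO, against 4.57 and 4.54 in BAT Ctrl (-0.53, adjusted p = 0.405 by limma). Uqcc was at 122 and 126 FPKM in BAT HuR-FKO, against 83.8 and 101 in BAT Ctrl (0.43, adjusted p = 0.460 by limma). Cyc1 was at 841 and 825 FPKM in BAT HuR-FKO, against 685 and 657 in BAT Ctrl (0.31, adjusted p = 0.496 by limma). Each of these 3 pairs of groups was apart, with 2 libraries a side.

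The c-ring gene Atp5g1 had the widest gap in BAT, -0.79 (95% interval -1.84 to 0.25, adjusted p = 0.616 by limma), and it rested on BAT Ctrl 1: the difference was -0.14 without that library and -1.44 without BAT Ctrl 2 (adjusted p = 0.0238). Within complex III the subunits lay on opposite sides of 0 when both Ctrl libraries were used. All 4 core genes were higher in BAT HuR-FKO (0.13 to 0.31) and all 5 small-subunit genes lower (-0.33 to -0.07), none of them called. Against Ctrl 2 alone, 3 of the 5 small-subunit genes were higher (Uqcr11 0.03, Uqcrb 0.05 and Uqcrq 0.10), and against Ctrl 1 alone the core gene Uqcrc2 was lower (-0.04). BAT Ctrl 1 was the highest BAT library for 19 of the 36 members and BAT Ctrl 2 the lowest for 20, and muscle markers summed to 1840 and 1913 FPKM in BAT HuR-FKO, against 5525 and 3248 in BAT Ctrl, with all 16 lower and 0 called (limma). Their part in these values was not tested.

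In eWAT, 25 members were higher and 11 lower under the HuR-FKO label, with a median of 0.04, against -0.01 for all genes. Without HuR-FKO 2 only 12 were higher, with a median of -0.04, and without Ctrl 2 only 15, with a median of -0.01. None was called (limma; 0.0406% of the 12330 genes tested were), and at an unadjusted p under 0.05 there were 0 members higher (3.84% of all genes) and 0 lower (3.82%). Groups did not overlap for 3 members higher, Sdha, Sdhaf2 and Uqcrfs1 (6.67% of all genes), and 0 lower (6.49%). Sdhaf2 was at 16.1, 16.2 and 14.6 FPKM in eWAT HuR-FKO, against 13.3, 13.7 and 13.2 in eWAT Ctrl (0.20, adjusted p = 0.669 by limma). Sdha was at 223, 232 and 237 FPKM in eWAT HuR-FKO, against 210, 200 and 200 in eWAT Ctrl (0.18, adjusted p = 0.689 by limma). Uqcc was at 43.4, 33.7 and 37.0 FPKM in eWAT HuR-FKO, against 37.4, 27.0 and 29.9 in eWAT Ctrl, with groups that overlapped (0.27, adjusted p = 0.718 by limma).

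**Figure D3:**
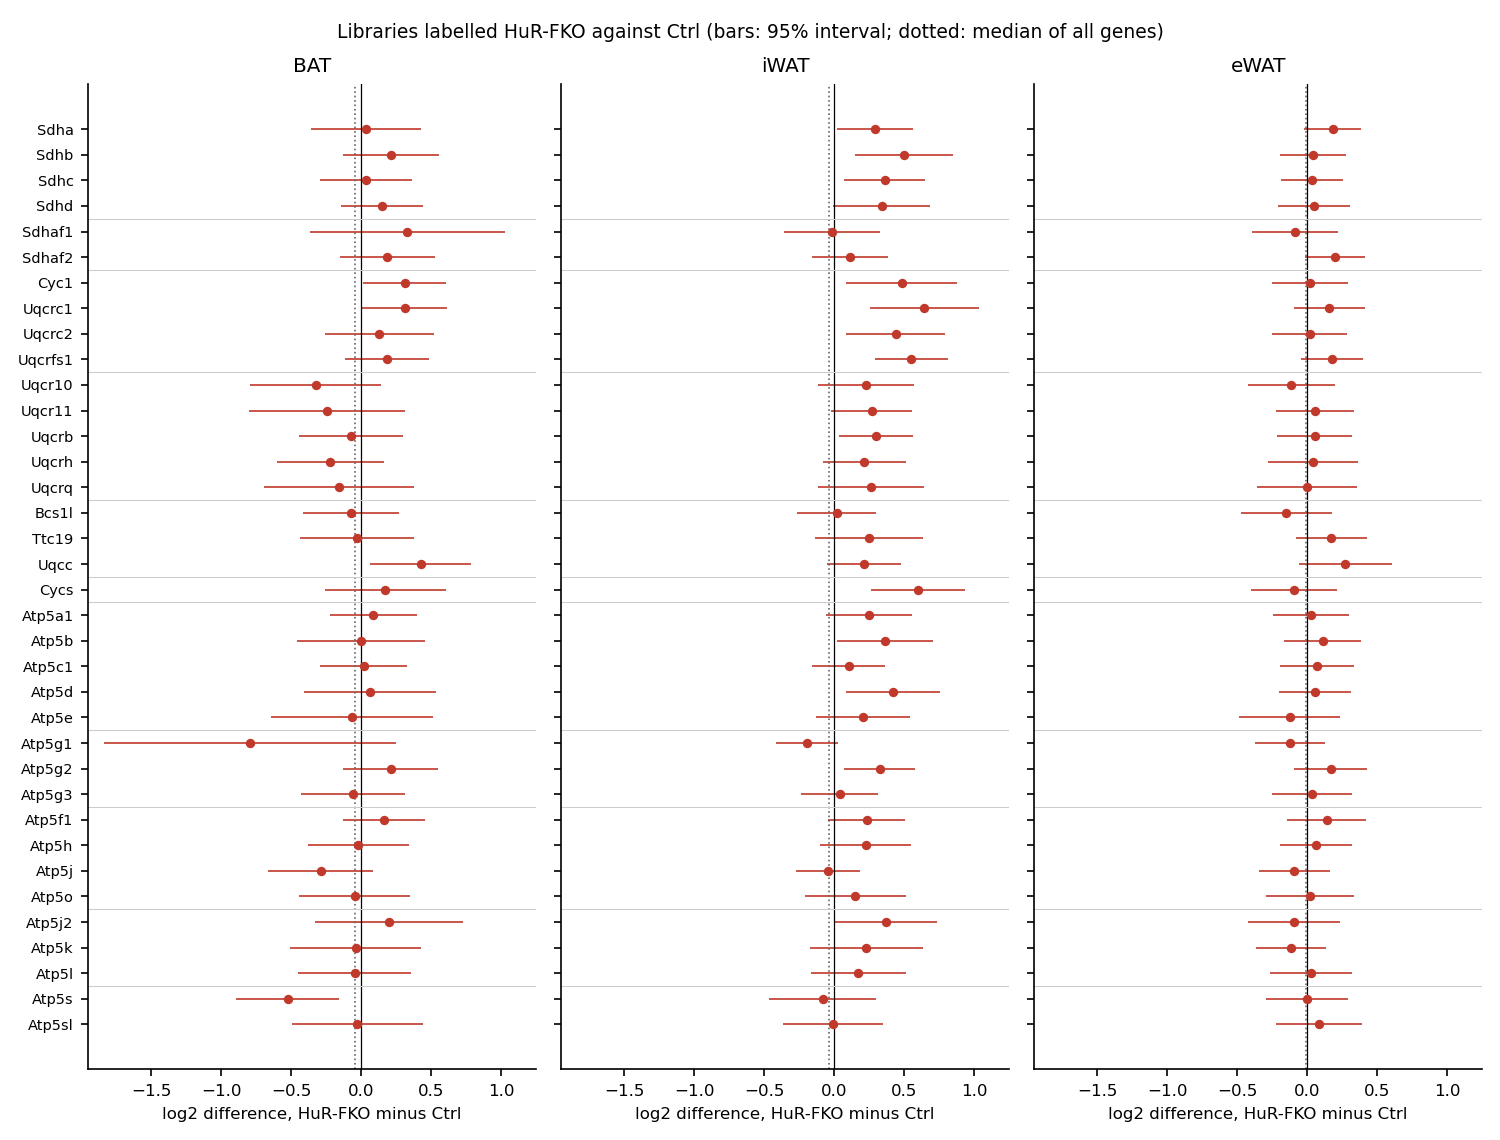
Log2 differences of HuR-FKO against Ctrl, on the log2(FPKM + 1) scale, for the 36 coding members in BAT, iWAT and eWAT, with bars for 95% intervals and dotted lines for the median of all genes. In iWAT 31 of 36 points lie above 0 with a median of 0.24, while in BAT, with both Ctrl libraries, the 4 core genes of complex III lie above 0 and its 5 small-subunit genes below.

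Whether the genotype difference itself differed between depots was tested by an interaction term over all 16 libraries. The genotype difference in iWAT minus that in eWAT was positive for 31 of 36 members, with a median of 0.19, against -0.03 for all genes. No member was called (limma; 0.0151% of the 13237 genes tested were), and 6 were positive (1.35% of all genes) and 0 negative (1.70%) at an unadjusted p under 0.05. Cycs had the smallest p among them (0.70, unadjusted p = 0.00526, adjusted p = 1.0 by limma), and stood at 0.43 with its copies added. The genotype difference in BAT minus that in iWAT was negative for 33 members, with a median of -0.26, against -0.01 for all genes; no member was called (limma; 0.00755%) and 3 were negative (3.03% of all genes) and 0 positive (1.81%) at an unadjusted p under 0.05. In BAT minus eWAT, 17 were positive and 19 negative, none called (limma; 0.00%), with 1 negative (3.79% of all genes) and 0 positive (1.58%) at an unadjusted p under 0.05. These terms share libraries with one another and are not separate evidence. A difference between depots in the genotype effect was therefore not shown for any single member.

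The ratio of complex V to complexes II and III differed between the depots. Summed complex V FPKM over the sum for complexes II and III was 1.20 to 1.22 in BAT HuR-FKO and 1.15 to 1.22 in BAT Ctrl. It was 1.35 to 1.42 in iWAT HuR-FKO, 1.48 to 1.53 in iWAT Ctrl, 1.68 to 1.73 in eWAT HuR-FKO and 1.70 to 1.74 in eWAT Ctrl. The depots did not overlap, and the genotypes did not overlap in iWAT. Complex V over complex II alone was 5.36 to 6.98 in BAT and overlapped with iWAT (6.34 to 6.71 in HuR-FKO and 7.19 to 7.29 in Ctrl), while all 6 eWAT libraries were at 7.63 or more. Complex III over complex II overlapped between all depots, at 3.56 to 4.70 in BAT, 3.69 to 3.91 in iWAT and 3.55 to 4.09 in eWAT. Within complex III, the small-subunit sum over the core sum was 1.55 to 1.76 in BAT HuR-FKO, against 2.07 to 2.44 in BAT Ctrl. It was 2.1 to 2.30 in iWAT HuR-FKO, against 2.52 to 2.89 in iWAT Ctrl, and 2.50 to 2.99 in eWAT HuR-FKO, against 2.78 to 3.07 in eWAT Ctrl. HuR-FKO libraries stood below Ctrl without overlap in BAT and iWAT and with overlap in eWAT. In BAT, with 2 libraries a side, 26.6% of all genes tested were also lower in HuR-FKO without overlap, and in iWAT 8.83%. The longest coding transcripts were of 434 to 1521 bases for the small-subunit genes and 1363 to 1896 bases for the core genes, with ranges that overlapped. Among genes above 100 FPKM, the median HuR-FKO to Ctrl difference in BAT was -0.14 for 110 genes whose longest coding transcript is under 800 bases, -0.14 for 162 genes of 800 to 1500 bases and -0.05 for 303 longer genes. In iWAT the medians of the shortest and the longest class were 0.06 and -0.02. The part of transcript length in the ratio was not tested.

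**Figure D4:**
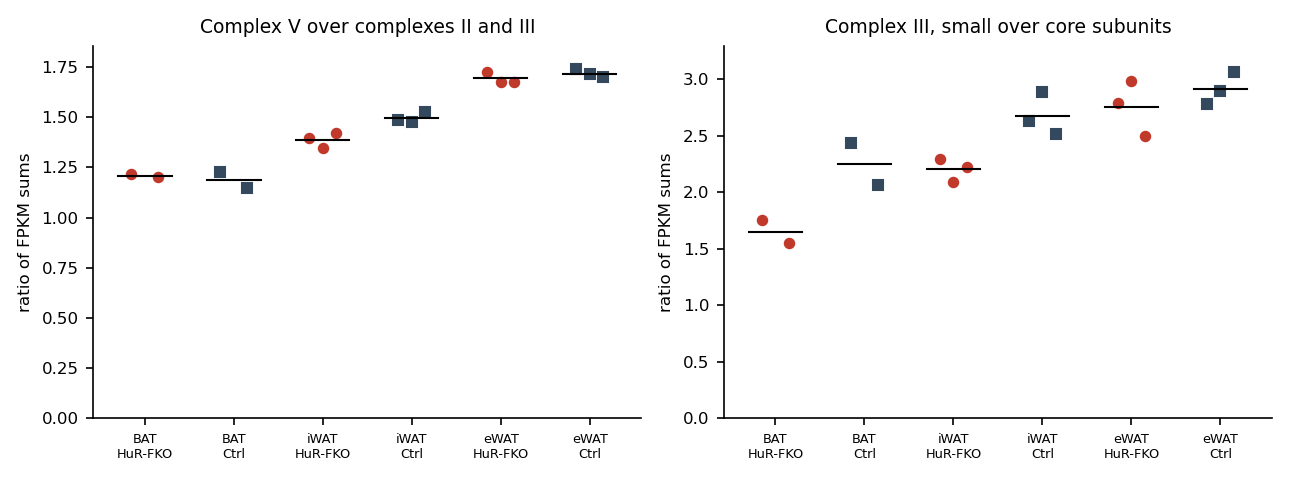
Ratios of summed FPKM in each library, complex V subunits over complex II and III subunits (left) and complex III small over core subunits (right), with red circles for HuR-FKO, dark squares for Ctrl and lines at group means. The left ratio lies at 1.15 to 1.22 in BAT and at 1.68 to 1.74 in eWAT. The right ratio is lower in HuR-FKO than in Ctrl without overlap in BAT, with 2 libraries a side, and in iWAT.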

How the data were processed

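RNA-seq libraries were stranded and sequenced as pairs. Per the labels and the study's methods, the authors aligned reads with TopHat2 2.0.11 to mm10 and computed FPKM with Cufflinks 2.1.1; the deposited table holds these FPKM values, 1 column per library, and every value column was mapped to a library by its name. Groups followed the labels. FPKM were tested on log2(FPKM + 1) with limma 3.58.1 in R 4.3.3 (eBayes with a trend, two-sided), over those protein-coding genes whose group mean passed 1 FPKM in any compared group; a difference on this scale understates the change of low genes. Genotypes were compared within each depot, depots within each genotype in a fit of 3 groups, and interactions over all 16 libraries. Gene positions, types and names are from GENCODE vM21 (mm10). Near-identical copies were transcripts of at least 95% identity over at least 200 bases; 12 of 37 members had at least 1.

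The members and lists were chosen with earlier results of these data known. Values in every library are given for the 3 members with the smallest p in each comparison of genotypes, the 4 highest and 4 lowest in BAT against iWAT (Ctrl), the c-ring genes, complex II subunits and complex III core subunits. Alternatives were 2 other scalings, a pseudocount of 0.1, other filters, no trend, a replicate block, 1 fit over all libraries, leaving out each library, and copies summed. The test was checked on simulated data.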

Additional observations from a re-analysis of the deposited data

How the results depend on the processing

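Of the recomputed values of named genes and sums, 918 kept direction and side of the threshold or moved within the spread, 8 passed the threshold anew, 3 no longer passed it, 9 turned direction and 6 moved by more than the spread. Of the medians and counts, 347 stayed within the spread or within 1.5 times and 23 did not; a count within 1.5 times can hide single members that crossed the threshold. With median-ratio scaling the median of the members moved to 1.97 (BAT against iWAT) and 2.36 (BAT against eWAT) in HuR-FKO and to 2.19 and 2.23 in Ctrl. With scaling to nuclear protein-coding FPKM it moved to 1.62 and 2.03 in HuR-FKO and to 1.77 and 1.87 in Ctrl, and the genotype median in BAT moved to 0.10; both scalings lift all BAT values. In BAT against iWAT under median-ratio scaling, Atp5g3 turned to 0.0298 in HuR-FKO and 0.10 in Ctrl, and in Ctrl Atp5g1 turned to 0.22 and Sdhaf2 to 0.51 (0.12 with nuclear scaling); in BAT against eWAT in Ctrl, Atp5g1 turned to 0.0397. Over the libraries left out, Atp5j in BAT against iWAT in Ctrl ranged from -0.0657 (without BAT Ctrl 1) to 0.20, and Atp5g1 in Ctrl from -1.09 (without BAT Ctrl 1) to 0.21 (without BAT Ctrl 2) against iWAT and from -1.30 to 0.0022 against eWAT. Over the libraries left out, the Ctrl medians ranged from 1.30 to 1.68 (BAT against iWAT) and 1.29 to 1.69 (BAT against eWAT), and the genotype median in BAT from -0.11 to 0.14 with 0 to 1 calls, the call being Atp5g1 without BAT Ctrl 2; both interactions with BAT had 0 to 1 calls, the 1 again without BAT Ctrl 2. With copies summed, chosen after seeing the data, the median of BAT against eWAT in HuR-FKO was 1.42. Counts in iWAT against eWAT in Ctrl were 4 with nuclear scaling and 4 in the fit over all 16 libraries, which called 1 member (Uqcrfs1) in iWAT HuR-FKO against Ctrl. The cause of these shifts was not tested otherwise. Within a depot, deviations from group means correlated at -0.25 to 0.40 between same-numbered libraries of the genotypes. Between differently numbered libraries they correlated at -0.42 to 0.36. Deviations from means of 2 or 3 libraries depend on one another, so they cannot decide whether the numbers pair the libraries. Libraries of different depots were not compared in this way. With the replicate block, iWAT against eWAT in Ctrl had 2 calls and the comparisons of genotypes 0. BAT against iWAT in Ctrl had 29 higher and 1 lower with it. Atp5s was lost there, as also without a minimum FPKM. Its call was lost too on leaving out iWAT Ctrl 1, iWAT Ctrl 2, BAT Ctrl 1 or BAT Ctrl 2 in turn. The block gave 13 calls in iWAT against eWAT in HuR-FKO (Atp5g3 lost, Atp5a1 and Uqcr10 gained). No other count moved by more than 1.5 times. Where a group was left with 1 library, that library was assumed to vary like the others. Depth limits genes of a few FPKM, such as Atp5s, and 2 libraries per BAT group limit every comparison of genotypes there.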
